A study of Mus musculus with 4 samples.

Results

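H3K36me3 peaks that lie outside protein-coding genes were described in primary tubular epithelial cells (PTECs) of the mouse kidney, with and without Setd2. A peak was placed by its midpoint. It was counted as outside when the midpoint fell in no protein-coding gene body of GENCODE M21 (GRCm38) and was not within 1 kb of a protein-coding transcript start, on chromosomes 1 to 19. By this rule 367 of 12198 control peaks lay outside (3.01%, 95% Wilson interval 2.72 to 3.33) and 144 of 2722 Setd2-KO peaks (5.29%, 4.51 to 6.20). Both lists together hold 511 such peaks among 14974 peaks on all chromosomes. The values of the peaks were not used to choose them. The peaks nearest to the start limit were a control peak near Rpl29, 1130 bp from a coding start, just inside the rule, and a control peak at chr3:90212175-90212674, 877 bp from one, just outside it. In the Setd2-KO list the corresponding peaks were 1334 bp (near Id1) and 924 bp (chr9:3035809-3036098) from a start.

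Control cells carried floxed Setd2 alleles without Cre (SETD2fl/fl) and Setd2-KO cells carried the same alleles with Cre driven by the Ksp promoter (SETD2fl/fl KspCre/+), both in C57BL/6 mice. These genotypes and the cell type are those of the labels, and another description of the material in the study differs from them. Cells were isolated from kidney cortex. The labels give no age, and the study's reporting names adult mice of both sexes for its multi-omics work. Each genotype had 1 ChIP library with an anti-H3K36me3 antibody and 1 input library, and the authors called each peak list against its own input. With 1 library per genotype there was no replicate and no test between genotypes, so values are set side by side, and the intervals cover counting error only and treat peaks as independent. Ksp-Cre deletes only where the promoter of Cdh16 (Ksp-cadherin) is active, so a preparation can hold cells that keep Setd2. Fewer marked cells and less mark per cell cannot be told apart.

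The depth of the libraries is not in the peak lists, but the study's reporting gives nearly equal counts of uniquely mapped reads for both ChIP libraries. The genome-wide background of the lists, the lowest local background of each, amounted to 6.58 fragments for control and 6.54 for Setd2-KO. Setd2 itself carried 5 control peaks and 0 Setd2-KO peaks. Only 7.76% of protein-coding genes carried a Setd2-KO peak at all, so this cannot check the labels. Of 17 proximal tubule markers, 15 carried a control peak and 5 a Setd2-KO peak, where 20.6% and 7.76% of all protein-coding genes on chromosomes 1 to 19 did. None of 14 markers of the loop, distal tubule and collecting duct did in either list, Cdh16 among them. Markers of other cells carried a control peak in 3 of 7 endothelial genes, 1 of 5 podocyte genes, 1 of 8 immune genes and 0 of 8 fibroblast genes. Of these genes only the endothelial gene Egfl7 carried a Setd2-KO peak. None of these marker genes was the coding gene nearest to an outside peak.

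H3K36me3 is the trimethyl mark that SETD2, travelling with elongating RNA polymerase II, places on the nucleosomes of transcribed genes. It is strongest over the later part of a gene, can run on where transcription continues past the polyadenylation site, and is also found over transcribed long non-coding RNA genes and pseudogenes. Clusters of KRAB zinc finger genes, whose exons encode arrays of C2H2 fingers joined by a short conserved linker, are known to carry H3K36me3 together with H3K9me3. Satellite repeats gather far more reads than their share of the assembled genome, because many copies are missing from the assembly.

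Outside peaks fell into 2 main kinds. The first lay just beyond the 3′ end of a coding gene and is called 3′ flank here (up to 5 kb): 226 control and 63 Setd2-KO peaks. The other lay over 5 kb from any coding gene and is called distal: 135 control and 80 Setd2-KO peaks. The remaining 6 control peaks and 1 Setd2-KO peak lay within 5 kb before a 5′ end. A zinc finger linker motif lay within the 1 kb around the midpoint of 30 of 135 distal control and 25 of 80 distal Setd2-KO peaks. Of these, 19 and 16 lay in genes that RefSeq lists as coding, although GENCODE M21 does not. To show zinc finger sequence, the 102 bases over a pair of linkers 84 bases apart are printed for 6 distal Setd2-KO peaks. These overlap a control peak and have the highest Setd2-KO fold enrichment among peaks with such a pair. Sequence is from the RefSeq GRCm38.p6 assembly, 5′ to 3′ on the strand on which the linkers read forward, and capitals mark the 2 linkers.
Gm51425, chr17:17039319-17039420 (+): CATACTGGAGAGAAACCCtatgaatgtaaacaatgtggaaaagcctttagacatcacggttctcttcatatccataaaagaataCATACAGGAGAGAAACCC
Zfp939, chr7:39474007-39474108 (+): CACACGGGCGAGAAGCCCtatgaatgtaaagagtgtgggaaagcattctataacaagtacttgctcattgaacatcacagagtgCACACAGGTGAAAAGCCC
Zfp125, chr12:20900400-20900501 (-): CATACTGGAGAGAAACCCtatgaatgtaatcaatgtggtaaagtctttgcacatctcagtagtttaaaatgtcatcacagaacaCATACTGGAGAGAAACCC
Gm10033, chr8:69373133-69373234 (-): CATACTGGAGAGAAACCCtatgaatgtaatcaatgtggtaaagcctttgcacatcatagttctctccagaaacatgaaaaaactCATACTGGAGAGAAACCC
Gm6712, chr17:17318320-17318421 (+): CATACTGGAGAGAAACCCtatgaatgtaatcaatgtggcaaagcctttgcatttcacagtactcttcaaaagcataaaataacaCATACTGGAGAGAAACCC
BC002059, chr17:16973344-16973445 (+): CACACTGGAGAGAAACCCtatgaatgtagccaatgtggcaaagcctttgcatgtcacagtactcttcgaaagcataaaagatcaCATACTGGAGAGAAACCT

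The spacing of 84 bases, the length of 1 finger with its linker, was a condition for printing and is no finding in these 6 sequences. The motif searched was a pattern of 18 bases that can encode the C2H2 zinc finger linker, on both strands. It had 4929 matches on chromosomes 1 to 19 and lay in 1401 of the 1 kb windows of the genome (0.0585%). A match was found within the 1 kb around the midpoint in 31 of 367 outside control peaks (8.45%, 6.01 to 11.7), against a background of 1.69% of all control peaks, and in 26 of 144 outside Setd2-KO peaks (18.1%, 12.6 to 25.1), against 7.24% of all Setd2-KO peaks. All but 1 of these in each list were distal: 30 of 135 control (22.2%) and 25 of 80 Setd2-KO peaks (31.3%). Counted inside the peaks, 28 control peaks held 162 linkers and 24 Setd2-KO peaks held 140, up to 13 in 1 peak. Of neighbouring linkers on the same strand in a peak, 93 of 134 pairs (69.4%) were 84 bases apart among control peaks and 78 of 116 (67.2%) among Setd2-KO peaks.

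Distances to coding genes set the 3′ flank apart from the rest of the outside sequence. Of the outside peaks, 290 of 367 in the control list (79.0%, 74.6 to 82.9) and 101 of 144 in the Setd2-KO list (70.1%, 62.2 to 77.0) lay on the 3′ side of their nearest coding gene. Of the 1397 Mb of outside sequence itself, 46.4% lies on that side. The stretch within 1 kb beyond a 3′ end, 15.8 Mb, held 161 control peaks (10.2 per Mb) and 44 Setd2-KO peaks (2.79 per Mb). From 1 to 5 kb beyond the end there were 65 (1.33 per Mb) and 19 (0.390 per Mb). The stretch from 1 to 5 kb before a 5′ end, of similar size at 54.6 Mb, held 6 control peaks (0.110 per Mb) and 1 Setd2-KO peak (0.0183 per Mb). Sequence over 5 kb from a coding gene, 1278 Mb, held 0.106 control and 0.0626 Setd2-KO peaks per Mb.

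**Figure D1:**
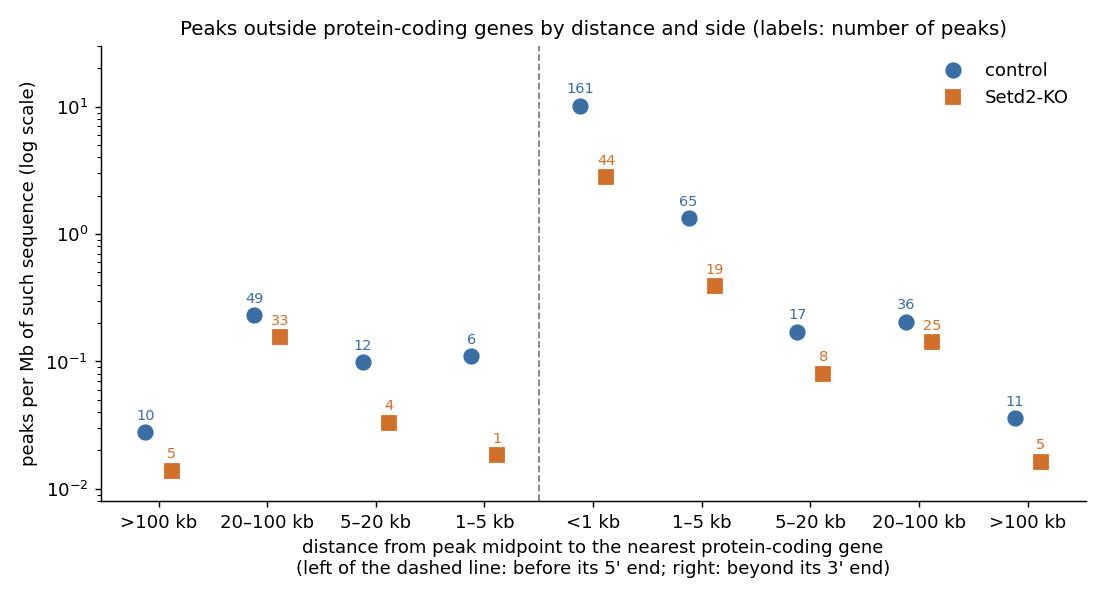
Outside peaks per Mb of outside sequence (log scale) against distance and side of the nearest protein-coding gene, for the control list (circles) and the Setd2-KO list (squares), with the number of peaks beside each point. Density was highest within 1 kb beyond a 3′ end (10.2 and 2.79 per Mb), and no peak lay within 1 kb before a 5′ end, where the rule leaves 0.446 Mb.

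The lists differed in number by an amount that varied with place. Coding gene bodies held 11167 control and 2389 Setd2-KO peaks, 4.67 control peaks for each Setd2-KO peak, and the 1 kb around coding starts held 664 and 189 (3.51). The 3′ flank stood in the same range with 3.59. Distal peaks stood at 1.69, covering 100205 bp (control) and 66337 bp (Setd2-KO). Distal peaks with a linker numbered 30 and 25 (1.20) and covered 34623 and 32620 bp. Distal peaks without one numbered 105 and 55 (1.91), and many of these lay near linker peaks. Joined into loci (described below), distal peaks at loci with a linker numbered 84 control and 69 Setd2-KO. At loci without any linker they numbered 51 and 11. Copies of similar sequence moved with the ratio as well. Where at least 90% of the 32-base words of a distal peak occur once in the genome, 49 control and 21 Setd2-KO peaks remained (2.33). Where fewer do, there were 86 and 59 (1.46). The part of read mapping in these numbers was not tested.

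In the 3′ flank, the nearest gene was touched by a peak of the same list for 174 of 226 control peaks (77.0%, 71.1 to 82.0), against a background of 20.6% of all protein-coding genes on chromosomes 1 to 19. For Setd2-KO peaks it was 40 of 63 (63.5%, 51.1 to 74.3), against 7.76% of genes. These counts include outside peaks that themselves reach into the gene. Counting only peaks with the midpoint inside the gene, the values were 161 of 226 (71.2%) against 20.4% of genes for control, and 33 of 63 (52.4%) against 7.71% for Setd2-KO. Among distal peaks the nearest gene was touched in 51 of 135 control cases (37.8%) and 28 of 80 Setd2-KO cases (35%). The control peaks belonged to 201 genes and the Setd2-KO peaks to 59, and their midpoints lay a median of 602 bp and 403 bp beyond the gene end. Only 45 control and 12 Setd2-KO peaks reached back into the gene itself. In 130 of 226 control peaks (57.5%) and 32 of 63 Setd2-KO peaks (50.8%) the coding gene on the far side was convergent, so that the peak lay beyond the 3′ ends of both. The remaining 96 and 31 were tandem, the only other arrangement found in the 3′ flank. The convergent share over all 3′ flank sequence was not computed, so these shares have no background beside them.

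The strongest 3′ flank peak of the control list lay 848 bp beyond Atp6v1g1, which encodes a subunit of the vacuolar proton pump (chr4:63551307-63551889, 5.54-fold over local background). It had no Setd2-KO counterpart, and Atp6v1g1 itself carried 1 control peak and 0 Setd2-KO peaks. Beyond Itm2b, a membrane protein gene, 3 control peaks lay 319, 1973 and 3580 bp from the gene end with folds of 5.03, 4.22 and 5.41. In the Setd2-KO list the nearest of these places alone held a peak, at 3.90-fold. Itm2b itself was touched by 6 control peaks, the peak 319 bp beyond its end among them, and by 3 Setd2-KO peaks. Beyond Slc25a3, the mitochondrial phosphate carrier gene, 4 control peaks reached out to 3644 bp with folds of 2.80 to 4.41, and 1 Setd2-KO peak lay 409 bp from the end at 3.66-fold. Both genes therefore showed the shorter run of peaks in the Setd2-KO list, which as a whole holds fewer 3′ flank peaks. They do not stand for all 3′ flank peaks. Of those, 71.2% of control and 69.8% of Setd2-KO peaks lay within 1 kb of the gene end, at median distances of 602 and 403 bp.

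Further control peaks lay beyond Tk2, the mitochondrial thymidine kinase gene (5.04-fold, Setd2-KO 3.71), and beyond Psma1, which encodes a proteasome subunit (4.996-fold, Setd2-KO 4.16). Peaks beyond Fgd4, a Cdc42 exchange factor gene (5.01-fold), beyond Mios, a gene of the amino acid sensing GATOR complex (5.01), and beyond Ccnl1, a cyclin gene (4.99), had no overlapping Setd2-KO peak. Srebf2, the regulator of cholesterol synthesis, was touched by 11 control and 2 Setd2-KO peaks. The peak with its midpoint 35 bp beyond the gene end (4.75-fold) is among the 11 and was in the control list alone. The genes of the 3′ flank named so far were chosen for their fold, number of peaks or function after their values were seen.

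Of 144 outside Setd2-KO peaks, 31 had no control peak within 1 kb, and 20 of these lay in the 3′ flank. For 12 of the 20 the gene itself carried a control peak. Among the 10 of highest fold, that of Oaz2, an antizyme of polyamine synthesis, stood at 4.64-fold with 1 control and 0 Setd2-KO peaks in the gene. That of Atp5f1, a subunit gene of the mitochondrial ATP synthase, stood at 4.46 with 3 control and 2 Setd2-KO peaks in the gene. Peaks beyond Atp5e, another subunit gene of that enzyme (4.11), and Zfp639, a zinc finger gene (4.24), followed genes with no control peak. The peak beyond Vegfa, which encodes an angiogenic growth factor and carried 4 control and 1 Setd2-KO peaks, was at 3.98-fold and was named after its values were seen. The highest 3′ flank fold of the Setd2-KO list, 4.91, was 435 bp beyond Actg1, the gamma actin gene, with a control peak 991 bp away. All 31 peaks were between 3.05 and 5.17-fold, and 1 list gives no measure of how often a peak of that height would be called again.

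The gene models bear on these counts. RefSeq extends a coding gene over the midpoint of 27 of 226 control 3′ flank peaks (11.9%) and 14 of 63 Setd2-KO ones (22.2%). Trmt5, a tRNA methyltransferase gene, is one of them, with 1 control peak (4.03-fold) and 2 Setd2-KO peaks (4.77 and 4.40) beyond the GENCODE end, and so are Mios and Zfp958. Among distal peaks the share was 65 of 135 (48.1%) in 22 RefSeq coding genes for the control list and 44 of 80 (55.0%) in 15 for the Setd2-KO list. Leaving out every peak in a RefSeq coding gene left 274 control and 85 Setd2-KO peaks, with 1.94 control peaks for each Setd2-KO peak among the distal ones and 4.06 in the 3′ flank.

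Distal peaks were shared between the lists more often than other outside peaks. Of 367 outside control peaks, 93 overlapped a Setd2-KO peak by at least 1 bp (25.3%, 21.2 to 30.03), against a background of 12.9% of all control peaks. The 3′ flank stood at 35 of 226 (15.5%, 11.4 to 20.8) and distal peaks at 58 of 135 (43.0%, 34.9 to 51.4). Distal peaks were clustered, with 86 of the 135 at 13 loci, so their interval, which treats peaks as independent, is too narrow. In the other direction 98 of 144 Setd2-KO peaks overlapped a control peak (68.1%, 60.1 to 75.1), against 61.1% of all Setd2-KO peaks. That was 38 of 63 in the 3′ flank (60.3%) and 60 of 80 distal ones (75%), with overlapping intervals.

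Among distal control peaks, those with a linker were shared in 22 of 30 cases (73.3%, 55.6 to 85.8) and those without in 36 of 105 (34.3%, 25.9 to 43.8). The same difference was present inside coding genes, where 134 of 172 control peaks with a linker (77.9%, 71.1 to 83.5) and 1220 of 10995 without (11.1%, 10.5 to 11.7) were shared. Sharing at linker sequence was therefore not particular to peaks outside genes. Without a linker, distal control peaks were still shared above the interval of coding gene bodies. Many of these 105 peaks lay near linker peaks, however. The loci with a linker, described below, held 84 distal control peaks, of which only 30 had a linker themselves. The 34.3% therefore does not describe distal peaks away from such loci, for which no total share was computed. Among loci without a linker, 3 of 9 distal control peaks were shared at the Lncpint locus and 0 of 5 at the Atp10d locus. At the locus of Malat1 and Neat1 it was 2 of 2. Uniqueness moved with sharing as well: distal control peaks with at least 90% unique words were shared in 13 of 49 cases (26.5%, 16.2 to 40.3) and the others in 45 of 86 (52.3%, 41.9 to 62.6), while in coding gene bodies these shares were 11.1% and 16.9%.

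**Figure D2:**
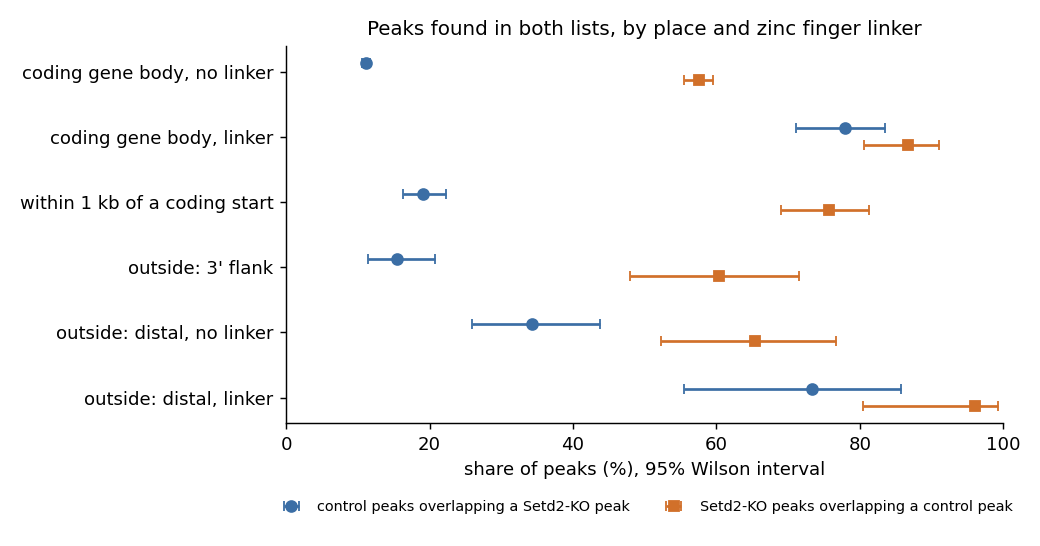
Share of peaks found in both lists (%, with 95% Wilson intervals), for control peaks overlapping a Setd2-KO peak (circles) and Setd2-KO peaks overlapping a control peak (squares), by place and by the presence of a zinc finger linker in the 1 kb around the midpoint. Control peaks with a linker stood at 77.9% in coding gene bodies and 73.3% among distal peaks, all other control groups between 11.1% and 34.3%.

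Where both lists had a peak, its fold enrichment was close between them. For the 58 shared distal control peaks the median ratio of Setd2-KO to control fold was 0.975 (quartiles 0.785 and 1.20), and the Setd2-KO fold was the higher one in 28. For the 22 with a linker the median ratio was 1.02, with the Setd2-KO fold higher in 12, and for the 35 in the 3′ flank it was 1.03, with 19 higher. In coding gene bodies it was 0.955 over 1354 pairs. These ratios hold only for places called in both lists, and each fold is relative to its own input and library.

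**Figure D3:**
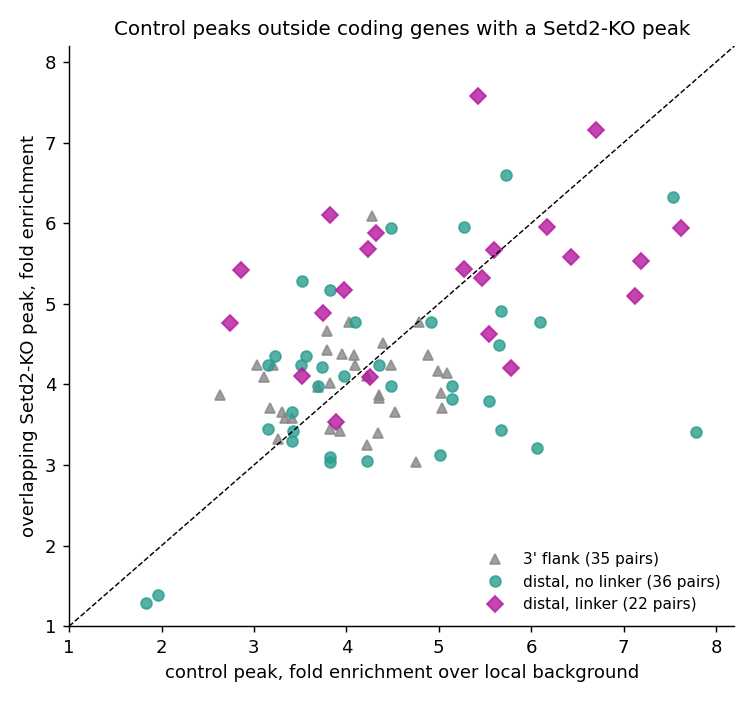
Fold enrichment of 93 outside control peaks (x axis) against that of the overlapping Setd2-KO peak (y axis, the highest where several overlap), with the line of equality. Linker peaks (diamonds) lie on both sides of the line, and the 2 points near the lower left corner, at folds of 1.83 and 1.96 in the control list, are peaks of very high local background.

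Distal peaks were concentrated in few places. Joined where neighbours lay within 100 kb, they formed 46 loci. Of these, 20 held peaks of both lists, 26 held control peaks only and 0 held Setd2-KO peaks only. The 13 loci with at least 6 peaks held 86 of 135 control and 69 of 80 Setd2-KO distal peaks. A linker was present at 16 loci, with 84 control and 69 Setd2-KO peaks, and 14 of these held both lists. The 30 loci without a linker held 51 control and 11 Setd2-KO peaks. Chromosome 17 alone held 39 of 135 control and 29 of 80 Setd2-KO distal peaks. Of all peaks on chromosomes 1 to 19 it held 486 of 12198 in the control list and 197 of 2722 in the Setd2-KO list.

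**Figure D4:**
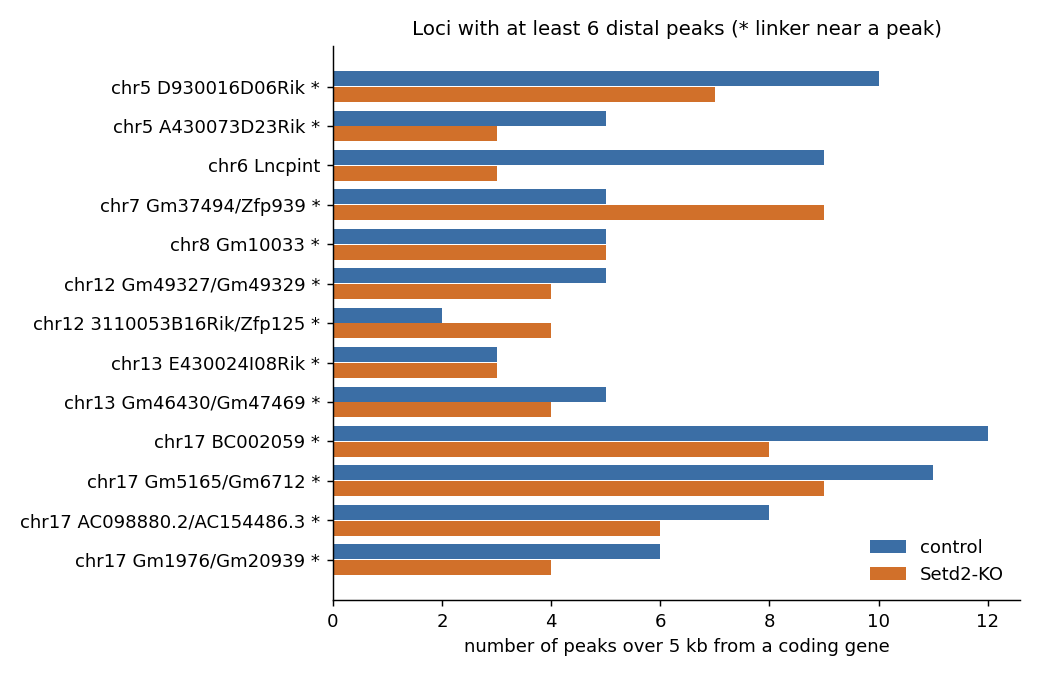
Number of distal peaks (x axis) of the control and Setd2-KO lists at the 13 loci with at least 6 of them, named by chromosome and by non-coding genes under the peaks, with an asterisk where a linker lay in the 1 kb around a peak. All but the Lncpint locus on chromosome 6 had a linker, and 2 loci (Zfp939 and Zfp125) had more Setd2-KO than control peaks.

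The largest were on chromosome 17. At chr17:16970871-17041540, before the zinc finger gene Zfp960, 12 control and 8 Setd2-KO peaks covered 10296 and 8194 bp, over the RefSeq gene Gm51425 and the lincRNA gene BC002059. The highest fold of all outside Setd2-KO peaks was here, 7.58 over Gm51425 (chr17:17037493-17040372), where the control fold was 5.42. At BC002059 the peak with linkers stood at 4.32 (control) and 5.88 (Setd2-KO), and a neighbouring one at 5.01 and 3.12. At chr17:17185577-17319733, 11 control and 9 Setd2-KO peaks covered Gm38396 (6.44 against 5.58), Gm5165 (7.18 against 5.54) and Gm6712 (7.63 against 5.94), whose control folds were the higher ones. Zfp960 itself, a coding neighbour of the first locus, carried no peak in either list. At chr17:94816001-94876496, Gm1976 had the highest fold of all outside control peaks, 7.78, with 3.41 at the overlapping Setd2-KO peak (the highest Setd2-KO fold in that gene was 4.63), while at Gm20939 nearby the folds were 5.28 and 5.44.

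Elsewhere, Zfp939 on chromosome 7, which GENCODE lists as a transcribed unprocessed pseudogene and RefSeq as a coding gene, held 3 control and 6 Setd2-KO peaks over 6782 and 5922 bp, with highest folds of 6.71 and 7.16. At Gm10033 on chromosome 8 (5 peaks in each list) the highest folds were 6.17 and 5.95, and at E430024I08Rik on chromosome 13 (3 peaks in each) 7.12 and 5.10. At Zfp125 on chromosome 12 (2 control and 4 Setd2-KO peaks) they were 3.83 and 6.10. At Gm46430 on chromosome 13 they were 4.24 and 5.68. Neither list was thus the higher one throughout. In the strongest Setd2-KO peak of each gene named at these loci, 47.5% (Gm51425) to 86.4% (BC002059) of the 32-base words were unique. The part of reads from similar copies was not tested.

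By annotation, 96 of 135 distal control peaks (71.1%) and 58 of 80 distal Setd2-KO peaks (72.5%) lay in a GENCODE non-coding gene. Of these, 43 and 33 lay in lincRNA genes, 39 and 24 in pseudogenes, and 16 and 3 in genes of the type processed transcript. How much of the distal sequence lies in non-coding genes was not computed, so no background stands beside these values and no enrichment can be read from them. Neither a GENCODE non-coding nor a RefSeq coding gene was present at 16 control and 8 Setd2-KO distal peaks. Of 31 non-coding genes of the list used for this report that the annotation holds, 3 carried an outside control peak and 4 an outside Setd2-KO peak.

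Malat1 and Neat1 on chromosome 19, long nuclear RNAs of the nuclear speckles and the paraspeckles, carried the mark in both lists. The Malat1 peak was the longest of all outside peaks in each list, 5544 bp at 5.72-fold in the control list and 5133 bp at 6.60-fold in the Setd2-KO one. The Neat1 peak was 2348 bp at 7.53-fold and 1610 bp at 6.33-fold, with a second Setd2-KO peak of 308 bp at 3.24-fold. At Tug1, another long non-coding RNA gene, 2 control peaks (6.07 and 4.35-fold) faced 1 Setd2-KO peak (3.21-fold, 569 bp against 1146 bp). Malat1 and Neat1 have no linker, and 99.3% and 100% of the words of their control peaks are unique. Snhg12, a snoRNA host gene, carried a Setd2-KO peak of 3.86-fold. The nearest control peak, 437 bp away and beyond the end of Snhg12, stood at 4.29-fold.

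At some other genes outside the coding annotation there were more control peaks. Around Lncpint on chromosome 6, a p53-induced RNA gene, 9 control and 3 Setd2-KO peaks lay over 110 kb. The peak at its highest control fold (4.72, 973 bp) overlapped no Setd2-KO peak, and the nearest one lay 596 bp away. The most distant Setd2-KO peak from any coding gene was also here, 206890 bp from Klf14 at 4.24-fold. At Atp10d on chromosome 5, a phospholipid-transporting ATPase gene that GENCODE lists as a polymorphic pseudogene, 7 control peaks (3.30 to 3.96-fold) faced 0 Setd2-KO peaks. Zswim6 on chromosome 13, which GENCODE lists here as a processed transcript and RefSeq as coding, carried 3 control peaks (up to 4.62-fold, 275651 bp from the next coding gene at the farthest) and 0 Setd2-KO peaks. Lncppara on chromosome 15 carried 3 and 0 as well. The order was the other one at Gm37494, Gm47469, Gm6712 and Gm5165, with 2 control and 3 Setd2-KO peaks each. At 1 library per genotype no count of this size can be tested.

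In the size and height of the peaks, the outside set was close to coding gene bodies, and the distal linker peaks were longer. Median fold was 3.83 (control) and 3.98 (Setd2-KO), against 3.83 and 3.85 in coding gene bodies. Distal linker peaks stood at 4.29 and 5.42, with median lengths of 860 bp and 1113 bp against 410 and 378 bp in coding gene bodies. Distal peaks were poorer in GC, at a median of 40.5% (control) and 38.1% (Setd2-KO) against 46.7% and 45.5% in coding gene bodies. A median of 71.9% and 66.6% of their 32-base words was unique, against 100% in both lists of coding gene bodies.

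A few outside peaks stood on very high local background, the caller's estimate of fragments from the input around the peak, which is never below the genome-wide value of the list. Raised background, meaning 2 times the genome-wide value or more, was found at 8 of 367 control peaks (2.18%), against 0.689% of all control peaks, and in 5 of 144 Setd2-KO peaks (3.47%), against 1.25%. Medians were near the genome-wide value, 6.58 and 6.75. The highest was at chr9:35305145-35305730, where 64968 control fragments over the summit stood on a background 5386 times the genome-wide value, so that the fold was 1.83. In the Setd2-KO list the same place had 50876 fragments, a background of 6057 times and a fold of 1.28. At chr12:3109679-3110215 background reached 1377 times (control) and 1503 times (Setd2-KO), with folds of 1.96 and 1.39. Peaks at chr14:19415511-19416021 (1613 times) and chr9:3021888-3022759 (270 times, with 4.88% of words unique) were in the control list alone.

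**Figure D5:**
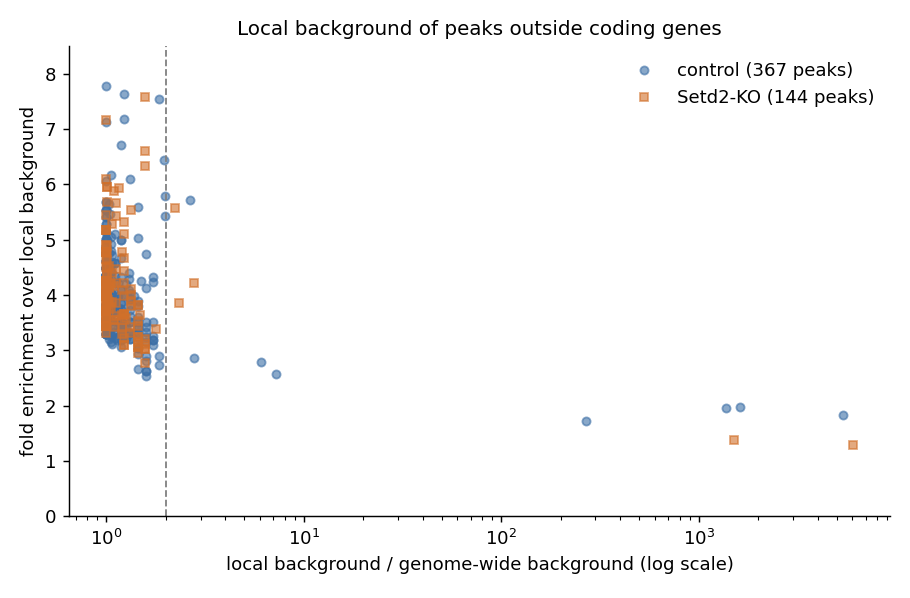
Fold enrichment over local background (y axis) against local background relative to the genome-wide value of the list (x axis, log scale) for 367 control and 144 Setd2-KO outside peaks, with a dashed line at 2 times. Most peaks lie near 1 on the x axis, and the 6 points beyond 100 times have folds of 1.28 to 1.98.

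The sequence at the summits of the 3 control peaks of highest background is printed to show that it recurs among them. Sequence is from RefSeq GRCm38.p6, forward strand, and capitals mark bases covered by a 32-base word that occurs more than once on the assembled chromosomes.
Summit on chromosome 9, chr9:35305404-35305523 (+): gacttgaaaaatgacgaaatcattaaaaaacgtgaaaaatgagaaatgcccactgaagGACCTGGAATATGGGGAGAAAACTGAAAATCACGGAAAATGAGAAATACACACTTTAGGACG
Summit on chromosome 14, chr14:19415720-19415839 (+): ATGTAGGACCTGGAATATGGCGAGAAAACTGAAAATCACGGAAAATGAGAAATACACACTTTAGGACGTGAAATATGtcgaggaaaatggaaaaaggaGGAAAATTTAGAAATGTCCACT
Summit on chromosome 12, chr12:3109881-3110000 (+): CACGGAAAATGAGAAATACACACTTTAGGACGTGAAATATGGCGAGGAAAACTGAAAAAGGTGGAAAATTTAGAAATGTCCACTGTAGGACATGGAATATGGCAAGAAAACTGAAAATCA
The 3 stretches show the same letters in shifted register. Of the 20-base words of these peaks and of chr9:3021888-3022759, 31.4% to 39.2% of each were found in 1 of the other 3. The next peak by background, near Sfi1 on chromosome 11 (7.25 times), shared 5.525%, and the remaining 3 peaks above 2 times shared 0%. Those were a peak 4604 bp beyond Cwc22, a splicing factor gene (6.06 times), a peak over Gm51425 (2.77 times) and Malat1 (2.64 times). The letters are those of the mouse major satellite, the tandem repeat of pericentromeric chromatin. Leaving out all peaks with raised background left 359 control and 139 Setd2-KO peaks.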

How the data were processed

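H3K36me3 ChIP and input libraries of renal PTECs, 1 of each per genotype, were grouped by the sample labels (the study's reporting instead describes cystic and tumour tissue from 1 mouse per group, with a Ksp-driven MYC transgene in both groups; the labels were followed). The submitters' processing notes name cutadapt 1.9.1 and Trimmomatic 0.35 for trimming, Bowtie2 2.2.6 as aligner on GRCm38 (mm10) and MACS2 2.1.1 as peak caller. The authors deposited 1 peak list per ChIP library, with other columns for position, length and summit. The signal (pileup) in the deposited lists is the number of fragments over the summit, and the fold enrichment the authors give is the ratio of pileup to local background, each plus 1. The deposited −log10 p and q values compare the ChIP library with its input. Which threshold gave the lists is unclear from the sources used here.

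Here each peak was placed by its midpoint with Python 3.11.15 (numpy 2.4.6, pandas 2.3.3, scipy 1.17.1, numba 0.67.0) on GENCODE M21 and RefSeq genes. Local background is (pileup + 1) / fold − 1. Words of 32 bases, shorter than the reads, were counted over the assembled chromosomes. Placement was tested on simulated peaks. Members, lists and tests were chosen with earlier results of these data known. Named in the text were, per list, the members of highest fold, length, background and distance, overlapping pairs and Setd2-KO members without a control peak of highest fold, genes with most peaks or bases, members at the start limit and listed genes. Examples outside this rule, among them most genes of the 3′ flank and the loci, were chosen after their values were seen. Chromosomes X and Y were left out of the counts.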

Additional observations from a re-analysis of the deposited data

How the results depend on the processing

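No paired analysis was possible because each genotype has 1 ChIP library and no replicate number. Of 67 recomputed values, 52 stayed within 1.5 times the reported count or within the reported 95% interval. Alternatives on RefSeq genes, starts of any transcript, unique words and linkers, and those of the control to Setd2-KO ratios, were chosen after seeing the data, and all of the latter stayed within 1.5 times. A fold enrichment of at least 4 left 138 control and 67 Setd2-KO peaks, moved the control share beyond a 3′ end to 73.2% and the share of Setd2-KO peaks overlapping a control peak to 56.7%. Requiring 90% unique words left 229 and 69 peaks and 17.03% of control peaks shared. Leaving out RefSeq coding genes left 85 Setd2-KO peaks, 83.6% of control peaks beyond a 3′ end and 19.7% of control peaks shared, and leaving out linker peaks gave 20.8% shared. Counting peaks within 1 kb as shared gave 34.3% of control and 78.5% of Setd2-KO peaks. A background limit of 1.5 times raised the shares to 8.99% and 9.72%. The lists limit what can be said: a place without a peak was below the caller's threshold, which is not absence of the mark, and a difference between the lists has no replicate error.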
